A study of Mus musculus with 12 samples.

Results

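Genes for 7 subunits of the GABA-A receptor were followed in RNA-seq counts of primary mouse cultures: the alpha subunits *Gabra2*, *Gabra3*, *Gabra4* and *Gabra5*, the beta subunits *Gabrb1* and *Gabrb2*, and the delta subunit *Gabrd*. They were taken by gene name from 55397 genes in the count table, with earlier results of these data known. All 7 passed the low-count filter. GABA-A receptors are chloride channels opened by GABA, the main inhibitory transmitter of the mature forebrain. Several subunits surround each pore. The alpha subunit largely sets where the receptor sits and how it responds to benzodiazepines, the beta subunit is needed for assembly and shapes the action of anaesthetics, and a delta subunit in place of a gamma subunit marks receptors outside the synapse that answer to ambient GABA. During forebrain development subunits such as alpha 3 are prominent early and others take over as neurons mature.

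The cultures came from 3 *Myt1l* (+/−) animals (505, 506 and 508) and 3 (+/+) animals (510, 511 and 513), taken at postnatal day 0 and kept until day in vitro 11. *Myt1l* encodes a zinc finger transcription factor of neurons that acts largely as a repressor. The mutant allele lacks 7 bp of exon 6, which shifts the reading frame, and by the labels its transcript is not degraded. Cultures of both genotypes were grown with 5% FBS and received 2 µM Ara-C, which acts against dividing cells, on day 3 after plating. The labels give C57BL/6J mice and cortex, whereas the study's methods name C57BL/6N zygotes and its sample list names hippocampal cultures, and these values do not settle either. All animals are labelled male, but (+/+) animal 511 had *Xist* counts of a female.

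Each animal had 2 libraries. Their counts were summed, giving 40642699 to 52833161 counts per animal. The libraries of an animal differed little for the subunit genes, by at most 1.17-fold in raw counts (*Gabrd*). Levels are given in CPM, the counts of a gene relative to the scaled total of its library (cpm of edgeR). *Myt1l* had 89.0, 146 and 165 CPM in (+/−) animals 505, 506 and 508, against 119, 147 and 109 CPM in (+/+) animals 510, 511 and 513. Its groups overlapped (log2 fold change 0.09 ± 0.22 SE, edgeR adjusted p = 0.81), so the RNA level offers no check of the genotype labels. The 20 pan-neuronal markers took 0.453%, 0.691% and 0.754% of counts in (+/−) animals, against 0.823%, 0.894% and 0.783% in (+/+) animals. All 20 had negative log2 fold changes (median −0.47). Summed CPM of 14 ependymal markers ran from 1179 to 1444 in (+/−) animals and from 656 to 996 in (+/+) animals, and 11 choroid plexus markers from 432 to 1600 in (+/−) and from 112 to 304 in (+/+). For 12 microglial markers the ranges were 154 to 295 in (+/−) and 108 to 144 in (+/+) animals, and the listed microglial gene *Siglech* had 0 counts in every animal. The ranges of 14 astrocyte markers overlapped (13464 to 14889 CPM in (+/−), 9629 to 14554 CPM in (+/+)), as did those of 12 meningeal fibroblast markers (2495 to 3367 CPM in (+/−), 2012 to 2566 CPM in (+/+)). *Nnat* made up much of this fibroblast sum. It had 1225, 1685 and 1924 CPM in (+/−) animals 505, 506 and 508, and 1418 to 1565 CPM in (+/+) animals. For 9 oligodendrocyte markers the ranges were 283 to 369 CPM in (+/−) and 200 to 272 CPM in (+/+), without overlap. *Cnp* made up much of this sum, with 197, 170 and 182 CPM in (+/−), against 117, 103 and 162 CPM in (+/+). Of the 9, 7 had positive log2 fold changes, and *Mbp* (−0.22) and *Cspg4* (−0.16) were negative. The listed *Sox10*, *Gpr17* and *Mog* had only 19, 7 and 42 counts over all animals. (+/−) animal 505 had the lowest pan-neuronal share and the highest sum for each of these 6 non-neuronal lists. In bulk RNA, fewer neurons and less RNA per neuron cannot be told apart.

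The alpha members differ at a residue that decides benzodiazepine binding. Alpha subunits with a histidine there are sensitive to diazepam, and alpha 4 carries an arginine. The coding sequence around this residue shows which of the measured alpha genes encode which kind. These stretches were read from GENCODE vM21 transcripts (39 bases each, 5′ to 3′ on the coding strand, the codon of the residue in capitals).
Gabra2 (chromosome 5): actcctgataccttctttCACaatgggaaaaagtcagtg
Gabra3 (chromosome X): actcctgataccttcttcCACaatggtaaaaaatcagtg
Gabra4 (chromosome 5): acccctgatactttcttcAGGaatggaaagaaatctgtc
Gabra5 (chromosome 7): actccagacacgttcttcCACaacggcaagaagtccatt
*Gabra2*, *Gabra3* and *Gabra5* have the histidine codon CAC and *Gabra4* the arginine codon AGG. The beta members differ likewise in the second membrane segment, at a residue that sets sensitivity to etomidate and loreclezole: beta 1 has a serine and beta 2 an asparagine (42 bases each, same conventions).
Gabrb1 (chromosome 5): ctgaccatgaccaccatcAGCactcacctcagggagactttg
Gabrb2 (chromosome 11): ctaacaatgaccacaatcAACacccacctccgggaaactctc

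To compare levels between genes, CPM was divided by the exon length of the gene in kilobases. *Gabra5* was highest, with 33.0 ± 12.1 CPM per kilobase in (+/−) animals and 38.8 ± 3.67 CPM per kilobase in (+/+) animals (SD, n = 3 each). *Gabrb1* followed with 19.6 ± 1.03 in (+/−) and 19.9 ± 1.56 in (+/+), and *Gabra2* with 11.0, 4.18 and 23.8 in (+/−) animals and 17.7 ± 5.32 in (+/+). The ranges of *Gabra2* and *Gabrb1* overlapped over animals, and those of *Gabra5* and *Gabrb1* only through animal 505. *Gabra4* (6.43 ± 1.32 in (+/−), 7.36 ± 0.520 in (+/+)) and *Gabrb2* (5.65 ± 1.53 in (+/−), 7.84 ± 1.06 in (+/+)) changed places between genotypes and did not differ beyond their spread. *Gabrd* (3.71 ± 1.18 in (+/−), 5.24 ± 0.514 in (+/+)) and *Gabra3* (2.87 ± 0.595 in (+/−), 4.69 ± 1.03 in (+/+)) were lowest and overlapped too. *Gabrb2* and *Gabrd* overlapped in (+/−) animals only. Alpha 5, the alpha subunit best known from hippocampal pyramidal cells, thus had the highest mean RNA level per kilobase of the 7 genes in both genotypes. This order depends on the length used, which counts all annotated exons: 2974 bases for *Gabra5* and 13838 for *Gabrb1*. By CPM, *Gabrb1* was highest, with a mean of 272 in (+/−) and 276 in (+/+), against 98.1 and 116 for *Gabra5*.

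No member was called between genotypes (edgeR quasi-likelihood test with Benjamini-Hochberg adjustment over all genes, adjusted p under 0.1), as for all genes tested (0 of 18264, 0%). All 7 had negative log2 fold changes of (+/−) over (+/+), with a median of −0.44, against 49.6% of all genes with a negative value and a median of 0.00 over all genes. *Gabra3* and *Gabrb2* had an unadjusted p under 0.05, which 9.11% of all genes had while lower in (+/−). In 3 of 7 genes, *Gabra3*, *Gabrb2* and *Gabrd*, every (+/−) animal lay below every (+/+) animal, as in 13.5% of all genes. The gaps between the nearest animals were small: with library 1 alone only *Gabrd* was separated in this way (1 of 7), and with library 2 alone all 3 were. limma voom on the 6 animals also called no member, and DESeq2 called *Gabra3* alone (1 of 7, adjusted p = 0.028). DESeq2 called 2.44% of 32322 genes lower, a base that includes genes with few counts. With a term for genetic sex, DESeq2 called no member (*Gabra3* adjusted p = 0.33). That term rests on animal 511, the only female by *Xist* counts. A fit of the 12 libraries with the library number as a replicate block treats the animal as a random effect. It called *Gabra3*, *Gabrb2* and *Gabrd* (3 of 7, adjusted p = 0.032, 0.044 and 0.066). Of its genes, 10.4% were called lower. The libraries of an animal are near repeats, and this fit counts them as partly independent. The SE of *Gabrb2* was 0.16, against 0.21 with limma voom on the 6 animals, so these p-values are likely too small.

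**Figure D1:**
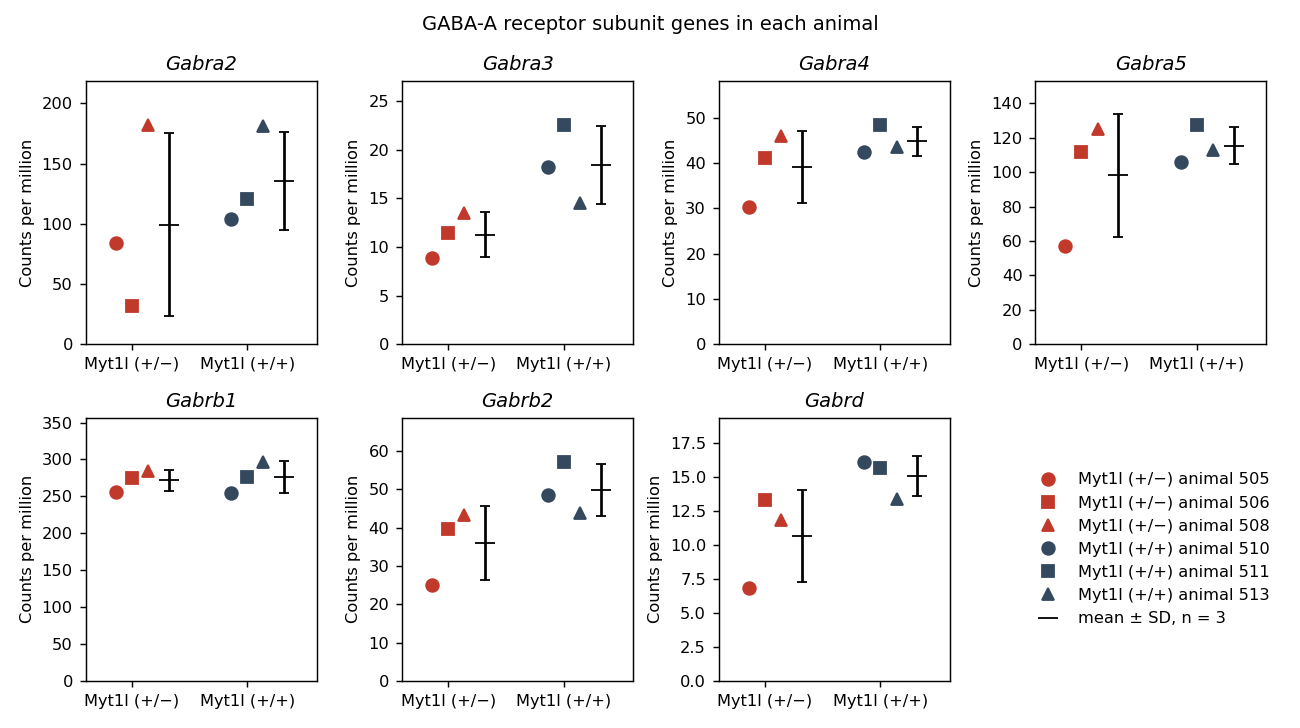
CPM (vertical axes, from 0) of each subunit gene in 3 *Myt1l* (+/−) animals (red) and 3 (+/+) animals (dark blue); points are animals and bars the mean ± SD. *Gabra3*, *Gabrb2* and *Gabrd* do not overlap between genotypes, *Gabrb1* lies between 254 and 297 CPM throughout, and *Gabra2* spans 31.96 to 182 CPM within (+/−) animals.

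*Gabra3* (chrX:72432681-72656848, minus strand, mm10) encodes alpha 3, an early forebrain subunit. It had 8.84, 11.4 and 13.5 CPM in (+/−) animals 505, 506 and 508, against 18.2, 22.5 and 14.5 CPM in (+/+) animals 510, 511 and 513. The groups were separated by the small gap between (+/−) animal 508 and (+/+) animal 513. The raw counts behind these values were 401, 473 and 549 in (+/−), against 947, 1013 and 619 in (+/+). The log2 fold change was −0.71 ± 0.20 SE (unadjusted p = 0.0087, edgeR adjusted p = 0.17), and the exact two-sided permutation test gave p = 0.1, the smallest value that 3 against 3 animals can give. It was the member with the most negative fold change. Its call depended on the fit. *Gabra3* passed the adjusted threshold without the low-count filter (edgeR adjusted p = 0.050, 1 of 7 members, 1.4% of 32322 genes lower, low counts included). It also passed without (+/+) animal 513 (edgeR adjusted p = 0.049, 1 of 7 members, 5.95% of genes lower). *Gabra3* had edgeR adjusted p = 0.49 with genetic sex and also without (+/+) animal 511. Animal 511 is the only female by *Xist* counts, so the term for sex fits that animal alone. These fits are in effect the same check. *Gabra3* is X-linked, and animal 511, the female among the controls, had its highest level. The same animal had the highest level of the autosomal *Gabra4*, *Gabra5* and *Gabrb2* and the highest pan-neuronal share. The part of sex in these levels was not tested.

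*Gabrb2* (chr11:42419757-42629028, plus strand) encodes beta 2, the beta subunit of many mature synaptic receptors. It had 24.9, 39.6 and 43.4 CPM in (+/−) animals, against 48.5, 57.2 and 43.9 CPM in (+/+) animals. The 2 closest animals of different genotype, 508 and 513, were nearly level. Its log2 fold change was −0.47 ± 0.20 SE (unadjusted p = 0.050, edgeR adjusted p = 0.22; exact permutation p = 0.1). Without (+/−) animal 505 it was −0.27 ± 0.12 SE.

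*Gabrd* (chr4:155384980-155398112, minus strand) encodes delta, the extrasynaptic partner of alpha 4. It had 6.83, 13.3 and 11.8 CPM in (+/−) animals, against 16.1, 15.6 and 13.4 CPM in (+/+) animals. Animals 506 and 513 differed by little, and 505 was lowest. For *Gabrd* the log2 fold change was −0.50 ± 0.23 SE (edgeR adjusted p = 0.24; exact permutation p = 0.1), and −0.26 ± 0.13 SE without animal 505.

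*Gabra4* (chr5:71569749-71658308, minus strand), which pairs with delta in extrasynaptic receptors, had 30.3, 41.2 and 45.9 CPM in (+/−) animals, against 42.5, 48.4 and 43.5 CPM in (+/+) animals. The groups overlapped, and only animal 505 lay below the (+/+) range by more than the (+/+) SD of 3.16 CPM. The log2 fold change was −0.20 ± 0.15 SE (edgeR adjusted p = 0.43; exact permutation p = 0.4).

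*Gabra5* (chr7:57407672-57510059, minus strand) had 57.3, 112 and 125 CPM in (+/−) animals, against 106, 128 and 113 CPM in (+/+) animals. Animal 505 was far below the rest, and the other (+/−) animals lay within the (+/+) range. *Gabra5* had a log2 fold change of −0.24 ± 0.26 SE (edgeR adjusted p = 0.57; exact permutation p = 0.6), and 0.04 ± 0.11 SE without animal 505. An antisense gene, *Gm9962*, shares 148 exon bases (4.98%) with *Gabra5*, with 95 counts over all animals.

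*Gabrb1* (chr5:71658113-72149037, plus strand), the beta subunit with the serine shown above, had 256, 275 and 284 CPM in (+/−) animals, against 254, 277 and 297 CPM in (+/+) animals. Both ranges nearly coincided, and no animal stood apart. A log2 fold change of −0.02 ± 0.10 SE (edgeR adjusted p = 0.90; exact permutation p = 0.9) made it the smallest of the 7. *Gabra4* and *Gabrb1* start head to head and share 46 exon bases on opposite strands. The sources used here do not give the strand setting of the counting.

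*Gabra2* (chr5:70957597-71095849, minus strand) encodes alpha 2, a subunit of synapses on the axon initial segment. As background, C57BL/6J mice carry an intronic deletion in *Gabra2* that lowers its RNA relative to other C57BL/6 substrains; the allele of each animal was not tested. *Gabra2* had 84.0, 31.96 and 182 CPM in (+/−) animals 505, 506 and 508, against 104, 120 and 181 CPM in (+/+) animals 510, 511 and 513. (+/−) animals held both the lowest and the highest level, and the groups overlapped. The low level of animal 506 recurred in both of its libraries, with 653 and 671 counts, as did the high level of 508, with 3647 and 3761 counts. The highest animal exceeded the lowest 5.70-fold overall and within (+/−), and 1.74-fold within (+/+). Of 10926 genes with a mean of at least 10 CPM, 31 had a ratio at least as large, and the median ratio was 1.36. The log2 fold change was −0.44 ± 0.54 SE (edgeR adjusted p = 0.60; exact permutation p = 0.5). It was −1.23 without animal 508, −0.18 without animal 513 and −0.03 without animal 506.

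The spread of *Gabra2* was not shared by the neighbouring subunit genes on chromosome 5. In genomic order the cluster is *Gabrg1* (a gamma subunit, chr5:70751047-70842617), *Gabra2*, *Gabra4* and *Gabrb1*. In animal 506, where *Gabra2* was lowest, *Gabra4* had 41.2 CPM and *Gabrb1* 275 CPM, both within the range of the other animals. *Gabrg1*, taken for its position, had 2.93, 3.19 and 4.06 CPM in (+/−) animals, against 4.15, 4.59 and 4.10 CPM in (+/+) animals. Its groups did not overlap, and its log2 fold change was −0.34 ± 0.17 SE (edgeR adjusted p = 0.27).

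**Figure D2:**
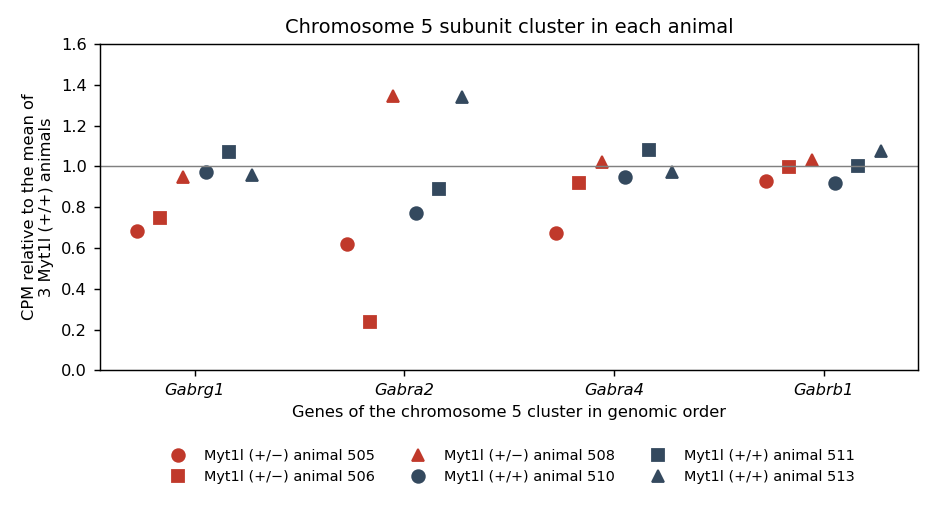
Level of each subunit gene of the chromosome 5 cluster in each animal, as CPM divided by the mean of the 3 (+/+) animals of that gene (vertical axis; grey line at 1); red points are (+/−) and dark blue points (+/+) animals. *Gabra2* scatters far more than its neighbours, with (+/−) animal 506 lowest and animals 508 and 513 highest, while *Gabrb1* stays near the line.

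The mix of subunits was then compared as the share of each gene in the summed CPM per kilobase of the 7. *Gabra5* took 30.9%, 45.8% and 38.8% in (+/−) animals, against 38.6%, 40.1% and 35.9% in (+/+) animals. *Gabrb1* took 29.7%, 24.1% and 18.96% in (+/−), against 19.8%, 18.7% and 20.4% in (+/+). *Gabra2* took 17.6%, 5.09% and 22.0% in (+/−), against 14.7%, 14.8% and 22.5% in (+/+). The shares of all 7 genes overlapped between genotypes. Computed from CPM without the length, *Gabrb1* had the largest share in every animal (mean 49.1% in (+/−), 42.2% in (+/+)). Those shares overlapped between genotypes too. *Gabra3* had a mean share of 3.44% ± 0.236 in (+/−) and 4.63% ± 0.995 in (+/+) (SD, n = 3 each; exact permutation p = 0.3), and *Gabrb2* 6.72% ± 0.734 in (+/−) and 7.74% ± 1.04 in (+/+) (exact permutation p = 0.2). No share reached the smallest p that 3 against 3 animals can give. The sum itself was 62.3, 82.2 and 108 CPM per kilobase in (+/−) animals, against 92.5, 107 and 105 in (+/+) animals (exact permutation p = 0.4).

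**Figure D3:**
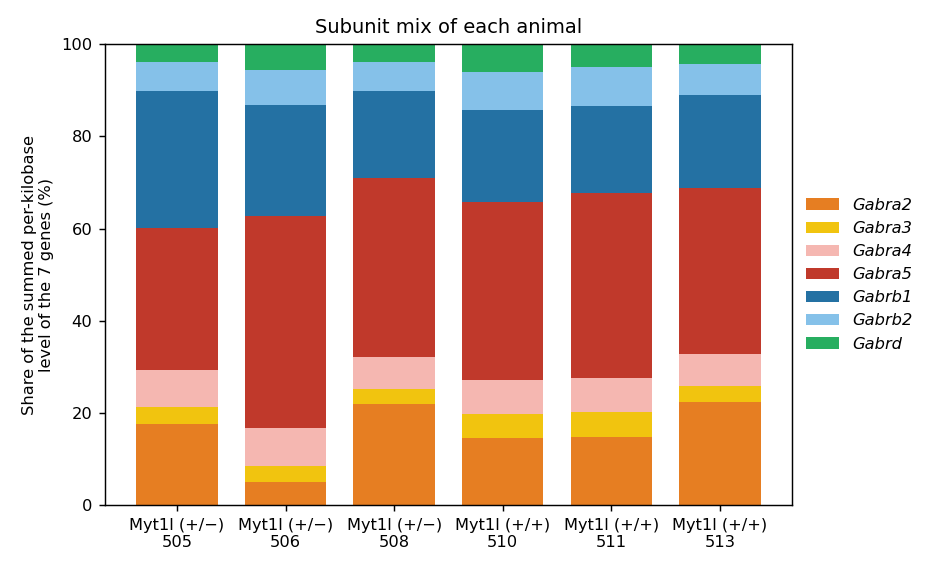
Share (%) of each gene in the summed CPM per kilobase of the 7 subunit genes, 1 bar per animal, (+/−) animals left and (+/+) animals right. *Gabra5* and *Gabrb1* fill most of every bar, and the *Gabra2* segment is narrowest in (+/−) animal 506, at 5.09%.

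Because pan-neuronal markers were lower in (+/−) animals, the levels were also expressed relative to those markers. Bulk counts do not show which cells the RNA of a subunit gene came from, so this scale gives no level per neuron. With library sizes set by the summed counts of the 20 pan-neuronal markers, the median log2 fold change of all genes moved to 0.50 and that of the 7 subunit genes to −0.02, and 4 of 7 were negative. *Gabra3* had −0.25 ± 0.26 SE, *Gabrb2* −0.04 ± 0.21 SE and *Gabrd* −0.09 ± 0.26 SE on this scale. *Gabra4*, *Gabra5* and *Gabrb1* reversed to 0.25 ± 0.22 SE, 0.16 ± 0.20 SE and 0.46 ± 0.23 SE (edgeR adjusted p = 0.38, 0.55 and 0.17). None of the 3 genes with separated groups kept that separation, whereas for *Gabrb1* and *Gabra4* every (+/−) animal then lay above every (+/+) animal (2 of 7, exact permutation p = 0.1 each), as in 44.1% of all genes on this scale. On the rescaled libraries *Gabrb2* had 41.0, 40.8 and 41.3 CPM in (+/−) animals, against 41.7, 45.5 and 39.9 CPM in (+/+) animals. The 3 (+/−) animals were almost level on this scale and lay within the (+/+) range.

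**Figure D4:**
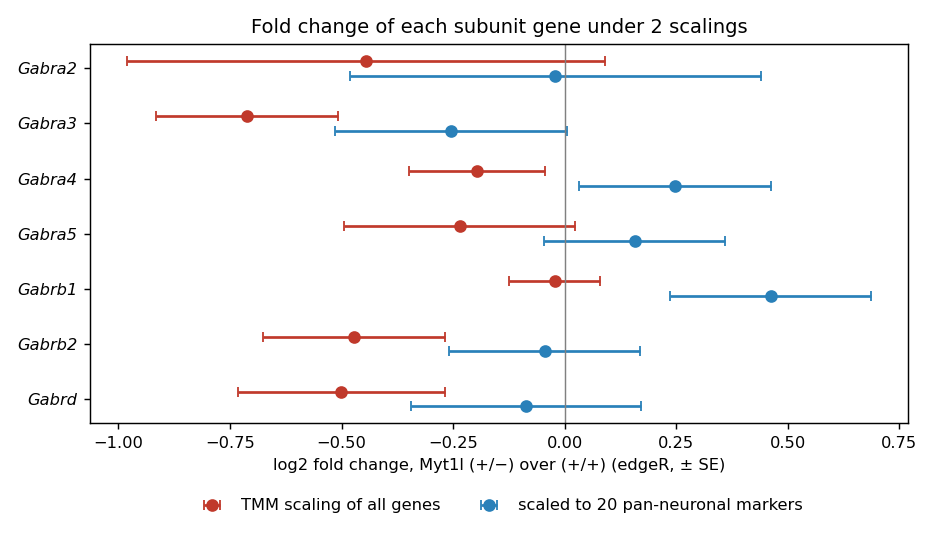
Log2 fold change of (+/−) over (+/+) (horizontal axis, edgeR, ± SE, 3 animals each) of each subunit gene with TMM scaling over all genes (red) and with library sizes from 20 pan-neuronal markers (blue). All 7 red points lie below 0, and the blue points of *Gabra4*, *Gabra5* and *Gabrb1* lie above 0.

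Across the 6 animals, the CPM of the subunit genes was set against the pan-neuronal share of counts, a relation that pools both genotypes and leaves only 3 animals within each. Of 7 relations computed, that of *Gabrb2* had r = 0.98 and rho = 1.00 (n = 6, exact permutation p = 0.0014 and 0.0028, unadjusted), and r = 0.97 without animals 505 and 511, which lie farthest from the median share. *Gabra3* had r = 0.88 and rho = 1.00 (n = 6, exact permutation p = 0.017 and 0.0028, unadjusted), and r = 0.96 without them. *Gabrd* had r = 0.94 and rho = 0.89 (n = 6, exact permutation p = 0.012 and 0.033, unadjusted), and r = 0.63 without them. The relations of *Gabra4* (r = 0.95, rho = 0.77, n = 6, exact permutation p = 0.018 and 0.10) and *Gabra5* (r = 0.90, rho = 0.60, n = 6, exact permutation p = 0.047 and 0.24) rested on those animals, with r = 0.26 and −0.34 without them. *Gabra2* (r = 0.38, rho = 0.43) and *Gabrb1* (r = 0.39, rho = 0.14) had exact permutation p values from 0.42 to 0.80 (n = 6). Values of r without animals 505 and 511 rest on the few animals left and are descriptions only. CPM and the marker share are also both relative to the total counts of the same animal. The part that the number of neurons has in the fold changes was not tested.

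**Figure D5:**
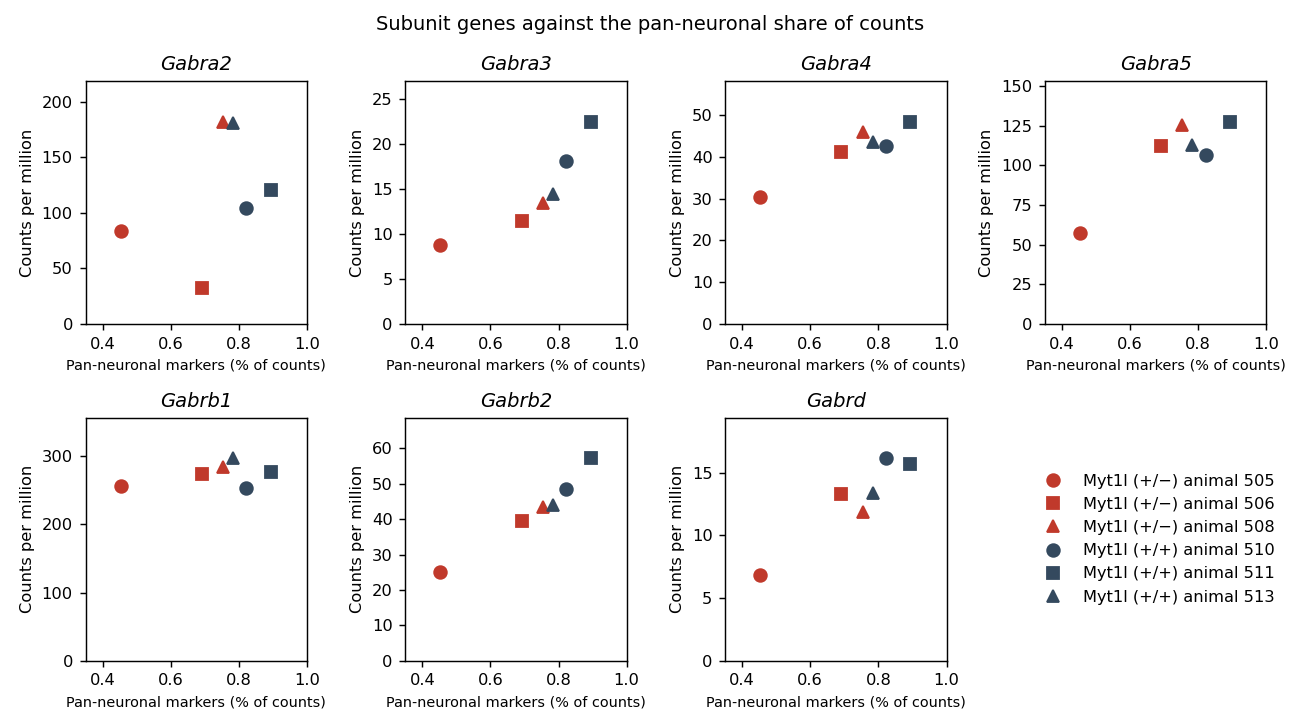
CPM of each subunit gene (vertical axes, from 0) against the share of counts in 20 pan-neuronal markers (horizontal axes, %); each point is an animal, (+/−) red and (+/+) dark blue. *Gabrb2* is higher where the share is higher, in all 6 animals (r = 0.98), whereas *Gabrb1* and *Gabra2* show no such order.

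The 5 genes whose log2 CPM over the 6 animals was most like the mean profile of the 7 included *Trpv2*, *Hmgxb3*, *Amer2* and *Kcnt2* (Pearson r from 0.993 to 0.996, the highest among 10919 other genes with a mean of at least 10 CPM). *Trpv2*, a cation channel, had 12.4, 14.9 and 17.8 CPM in (+/−) animals, against 17.6, 18.9 and 18.0 CPM in (+/+) animals. None of the 5 was called (edgeR adjusted p from 0.27 to 0.35).

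Genes that act with these receptors, and the neurons that carry them, were described from lists, none of whose members was called by edgeR. Of 12 other GABA-A subunit genes, 8 were tested and 6 had negative values, with a median of −0.25 and 1 gene lower at an unadjusted p under 0.05. *Gabra6*, the cerebellar granule cell subunit, had 1 count in all 6 animals together and *Gabrp* 6. *Gabrg3*, next to *Gabra5* on chromosome 7, had 10.8, 12.5 and 16.5 CPM in (+/−) animals, against 14.3, 14.8 and 15.1 CPM in (+/+) animals, with overlapping groups. Of 19 genes for assembly, trafficking and anchoring of the receptors, 13 were negative (median −0.17), and 3 were lower at an unadjusted p under 0.05. *Nlgn2*, the adhesion protein of inhibitory synapses, had 167, 205 and 224 CPM in (+/−) animals, against 290, 319 and 242 CPM in (+/+) animals. Its groups did not overlap, and its log2 fold change was −0.51 ± 0.15 SE (edgeR adjusted p = 0.17). *Shisa7*, an auxiliary subunit of the receptor, had −0.58 ± 0.20 SE (edgeR adjusted p = 0.19), while the abundant *Gabarapl1*, a trafficking protein, had −0.17 ± 0.11 SE, and *Nsf*, a general membrane fusion ATPase, −0.42 ± 0.23 SE.

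The chloride gradient that sets the direction of GABA currents depends on a pair of transporters. *Slc12a5* (KCC2), the neuronal chloride exporter, had 116, 217 and 226 CPM in (+/−) animals, against 280, 342 and 238 CPM in (+/+) animals. *Slc12a2* (NKCC1), the importer, which glia and choroid plexus also express, had 55.9, 38.8 and 36.2 CPM in (+/−) animals, against 33.5, 33.4 and 35.8 CPM in (+/+) animals. Neither pair of groups overlapped, in opposite directions, with log2 fold changes of −0.62 ± 0.26 SE and 0.35 ± 0.16 SE (edgeR adjusted p = 0.21 and 0.24). Animal 505 had the highest *Slc12a2* level and also the highest sum of every non-neuronal list. Among the other animals the gap was small, with 36.2 CPM in (+/−) animal 508 and 35.8 CPM in (+/+) animal 513. The part of the cell mix in these levels was not tested.

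Among 8 tested genes for GABA synthesis, transport and breakdown, 7 were negative (median −0.36). *Slc6a13* (GAT2), a transporter of the meninges, had 9.67, 0.724 and 0.541 CPM in (+/−) animals, against 0.250, 0.668 and 0.070 CPM in (+/+) animals. Its groups overlapped, and animal 505 was far above the rest. *Abat*, the GABA transaminase, differed little, with −0.04 ± 0.08 SE. Of 6 GABA-B receptor genes, 5 were negative (median −0.37). The receptor subunits *Gabbr1* and *Gabbr2* had −0.39 ± 0.19 SE and −0.49 ± 0.27 SE. The auxiliary subunit *Kctd16* had −0.70 ± 0.20 SE (edgeR adjusted p = 0.17) and its relative *Kctd12b* 0.75 ± 0.29 SE (edgeR adjusted p = 0.20), both without overlap of the groups. Of 3 tested glycine receptor genes all were negative (median −0.18). *Glrb*, the subunit shared by glycine receptors and bound by gephyrin, had −0.48 ± 0.18 SE (edgeR adjusted p = 0.20), and *Glra2* −0.18 ± 0.18 SE. For scale, the 20 pan-neuronal markers had a median of −0.47, with the smallest p for *Snhg11* (−0.69 ± 0.10 SE) and *Meg3* (−0.58 ± 0.11 SE), whereas the abundant *Map2* had −0.19 ± 0.14 SE and *Stmn2* −0.48 ± 0.28 SE. None of these was called either. Markers of excitatory neurons were negative in 9 of 10 (median −0.49), with *Slc17a7* (VGLUT1) at −0.48 ± 0.28 SE and *Neurod2* at −0.89 ± 0.26 SE. Markers of interneurons were negative in 11 of 14 (median −0.56), with *Lhx6* at −0.72 ± 0.26 SE, *Gad1* at −0.46 ± 0.23 SE and *Reln* at 0.55 ± 0.15 SE.

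The promoter windows of the members were read from RefSeq (GRCm38.p6, the assembly of mm10), since MYT1 family proteins bind a short AAGTT core. Of the 7 genes, 6 matched, with 10 windows. The 250 bases before each start were searched for AAGTT on both strands. A match was present in 5 of 10 windows, against 35.3% of all 32851 windows. These 5 windows belong to 4 of 6 genes (*Gabra3*, *Gabra5*, *Gabrb1* and *Gabrb2*), and no share per gene was computed for all genes. The study gives the motif as AAAGTT, which was not counted here. AAAGTTT, which contains the core, was present in none of the 10 and in 4.198% of all windows. Shown are a window of the gene with the most negative fold change, the 1 of its 2 windows that holds no annotated exon, and the window of the gene that varied most between animals, in lower case with AAGTT or its reverse complement in capitals, 5′ to 3′ on the strand of the gene.
Gabra3 (chrX:72656920-72657169, minus strand): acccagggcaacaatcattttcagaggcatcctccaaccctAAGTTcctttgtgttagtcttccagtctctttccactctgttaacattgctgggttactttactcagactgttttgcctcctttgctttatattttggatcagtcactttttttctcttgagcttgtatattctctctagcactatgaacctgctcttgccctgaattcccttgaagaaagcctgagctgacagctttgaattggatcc
Gabra2 (chr5:71095850-71096099, minus strand): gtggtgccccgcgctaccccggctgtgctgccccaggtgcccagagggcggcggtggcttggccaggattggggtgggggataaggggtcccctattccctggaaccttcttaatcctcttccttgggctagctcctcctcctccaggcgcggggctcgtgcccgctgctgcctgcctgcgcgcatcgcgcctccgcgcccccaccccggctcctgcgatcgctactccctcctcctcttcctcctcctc
This *Gabra3* window has a GC content of 42.4% and 1 match, and the *Gabra2* window a GC content of 70.0% and no match, against a median GC content of 52.4% over all windows. Such a match is a description of the letters, and binding was not measured here. The study mapped MYT1L binding by CUT&RUN in prefrontal cortex, and those sites were not used.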

How the data were processed

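RNA of 12 libraries from 6 animals was analysed. For every library the authors deposited raw counts of each gene; per the methods and processing notes, paired-end reads were aligned to mm10 using STAR. The sources used here do not name the counting tool. The deposited normalised counts and the table of the authors' own fold changes and p-values were not used. Exon lengths, another deposited column, gave levels per kilobase. Gene IDs and positions of 54345 of 55397 rows equal GENCODE vM21.

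The 2 libraries of each animal were summed, so n = 3 animals per genotype. Nothing states how the cultures of an animal were divided, so p-values measure the spread between these animals only. edgeR 4.0.16 in R 4.3.3 was run with its low-count filter by genotype (18264 genes left), TMM scaling, the quasi-likelihood test without covariates and Benjamini-Hochberg adjustment over all genes, at an adjusted p under 0.1. CPM are per TMM-scaled library. The study's own model for mouse bulk data (DESeq2 with genetic sex) was an alternative in DESeq2 1.42.0, beside limma 3.58.1, other scalings and filters, single libraries, and each animal left out. The fit was tested on data simulated for this comparison (18264 genes). There it called 41.8% of 67 genes changed 1.5-fold, 95.5% of 67 changed 2-fold, 100% of 66 changed 4-fold, and 20 of 18064 unchanged genes. The simulated counts had the same dispersion for every gene and no shared shifts between animals, and only well-counted genes were changed. These rates are therefore no measure of what the fit could call in the real counts. Exact two-sided permutation tests compared single values.

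The members and lists were chosen with earlier results of these data known. From lists of genes that act with the receptors and of neuronal markers, names were taken from the 2 genes with the smallest p and the 2 with the highest mean CPM. The lists of other subunits and of non-neuronal cells are given by counts, medians or sums, with some genes named beside them. These are *Gabrg1*, *Gabrg3*, *Gabra6*, *Gabrp*, *Siglech*, *Nnat*, *Cnp*, *Mbp*, *Cspg4*, *Sox10*, *Gpr17* and *Mog*, chosen after their values were seen. The 5 genes most like the members were taken by Pearson r. Some genes that these rules picked are not reported here.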

Additional observations from a re-analysis of the deposited data

How the results depend on the processing

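Over 18 other settings for each of the 7 genes, 114 of 126 fold changes kept direction and side of the threshold, 6 crossed it and 6 reversed. With library sizes from pan-neuronal markers, *Gabra4*, *Gabra5* and *Gabrb1* reversed to 0.25, 0.16 and 0.46, the median of the members was −0.021, 4 were negative, 0 had every (+/−) animal below every (+/+) animal and 2 the opposite. With 1 animal left out, *Gabra5* ran from −0.45 to 0.038 and *Gabrb1* from −0.090 to 0.023, above 0 without (+/−) animal 505 (both) or (+/+) animal 513 (*Gabrb1*). The number of members called was 1 without the low-count filter and 1 with DESeq2 (*Gabra3* in both), 0 with DESeq2 and genetic sex, and 0 to 1 when 1 animal was left out. Between 5 and 7 members were then negative, their median ran from −0.59 to −0.26, and 3 to 5 had every (+/−) animal below every (+/+) animal, as had 15.3% to 26.4% of all genes. With library 1 alone 1 member was separated in this way and with library 2 alone 3, as were 12.6% and 12.9% of all genes. The counts of negative values, and of separate groups with animals or libraries left out, were chosen after seeing the data. In the fit of 12 libraries with the library number as a replicate block and a correlation within animals of 0.81, 3 members were called, *Gabra3* (−0.72, adjusted p = 0.032), *Gabrb2* (−0.51, adjusted p = 0.044) and *Gabrd* (−0.57, adjusted p = 0.066). Same-numbered libraries of different animals did not deviate together, so this block pairs no samples. The fit counts the near-repeat libraries of an animal as partly independent, and its adjusted p are smaller than those of limma voom over 6 animals. Over all genes, edgeR called 0 higher and 0 lower, without the low-count filter 1021 and 454, DESeq2 1343 and 790, DESeq2 with genetic sex 239 and 37, the fit with the replicate block 1868 and 1729, and edgeR without animal 513 2294 and 1109. The *Gabra5* share of the members, 0.29 percentage points higher in (+/−), reversed to −0.58 when computed from CPM. The cause of these shifts was not tested. The gaps that separate *Gabra3*, *Gabrb2* and *Gabrd* are smaller than the largest difference in raw counts of that gene between the 2 libraries of an animal.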
